A study of Mus musculus with 4 samples.

Results

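The polyamine genes described here are 10 genes of polyamine synthesis and turnover, Odc1, Amd1, Srm, Sms, Sat1, Azin1, Oaz1, Oaz2, Smox and Paox. They were chosen by name for their place in the pathway, with earlier results of these data known. All 10 were found among the 23242 rows of a table of gene expression in mouse prostate. RNA was sequenced from prostate tissue (ventral and dorsal lobes) of 2 TMPRSS2:ERG homozygotes (mice 26 and 29, labelled ERG positive) and 2 wild-type mice (27 and 28, labelled ERG negative), all of the inbred laboratory strain FVB. The transgene is a BAC clone, a large genomic fragment here spanning TMPRSS2, into which part of the human ERG gene was recombined behind a GFP cassette between loxP sites. ERG belongs to the ETS transcription factors. Cre protein was injected into pronuclei of 1 line with high GFP, and the homozygotes come from 1 sub-line. The sources used here do not give ages. Each library comes from its own mouse, and whole lobes were used, so a lower level cannot be told apart from fewer cells that make the transcript.

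Polyamines (putrescine, spermidine and spermine) are small positively charged molecules that bind nucleic acids and are needed for translation and growth. The prostate is known for making and secreting them in large amounts. Ornithine decarboxylase makes putrescine from ornithine, and spermidine synthase and spermine synthase then add aminopropyl groups taken from decarboxylated S-adenosylmethionine, which S-adenosylmethionine decarboxylase supplies. Antizymes bind ornithine decarboxylase and send it to the proteasome, and antizyme inhibitor binds antizymes in its place. Acetylation by spermidine/spermine acetyltransferase, followed by oxidation, runs the pathway backwards.

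Among the polyamine genes, S-adenosylmethionine decarboxylase fell in homozygous lobes once the 2 rows of the table over its locus were summed, with a log2 fold change (homozygote over wild type) of -0.69 (SE 0.129, n = 2 each). That sum was formed after the data were seen, and its call was lost without homozygote 26 (limma adjusted p = 0.186), without homozygote 29 (0.318) and with no filter on low values (0.0583). Odc1 had a log2 fold change of -0.59 (SE 0.165) and did not pass the test. Sat1, Smox, Paox, Azin1, Oaz1 and Oaz2 had fold changes between -0.11 and 0.16. Of the 10 rows taken singly, 0 passed a limma adjusted p of 0.05, against 7.65% of the 11762 genes tested (4.65% higher and 3.00% lower in homozygotes). Of the 10, 1 (Odc1) had an unadjusted p under 0.05, against 21.0% of all genes tested, and the authors' deposited table calls 1 (Amd1) at a q-value under 0.05, against 14.2% of its genes.

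The rows Amd1 and Amd2 both lie over the Amd1 gene for S-adenosylmethionine decarboxylase. The table places Amd1 (Entrez 11702) on chromosome 10 from 40287458 to 40302188 and Amd2 (Entrez 100041585) from 40287465 to 40302186 (mm10). GENCODE M21, on the same build, has Amd2 elsewhere on chromosome 10, from 35708675 to 35711892, as a separate gene of 1 transcript. The transcripts of the 2 genes are close copies: 85.7% of the 50-base windows of the Amd2 transcript occur without a mismatch in Amd1 transcripts. The RefSeq windows around their start sites (GRCm38.p6, minus strand) are shown because they separate the 2 genes before the start and join them after it. Each line holds 250 bases before the annotated start and 30 after it, chr10:40302159-40302438 for Amd1 and chr10:35711862-35712141 for Amd2, and capitals mark the bases that belong to their longest shared run.
Amd1: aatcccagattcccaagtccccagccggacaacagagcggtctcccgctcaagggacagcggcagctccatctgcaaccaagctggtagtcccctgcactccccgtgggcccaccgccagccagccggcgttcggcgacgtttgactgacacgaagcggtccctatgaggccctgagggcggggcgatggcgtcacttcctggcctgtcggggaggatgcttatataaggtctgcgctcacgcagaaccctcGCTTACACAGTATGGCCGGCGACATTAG
Amd2: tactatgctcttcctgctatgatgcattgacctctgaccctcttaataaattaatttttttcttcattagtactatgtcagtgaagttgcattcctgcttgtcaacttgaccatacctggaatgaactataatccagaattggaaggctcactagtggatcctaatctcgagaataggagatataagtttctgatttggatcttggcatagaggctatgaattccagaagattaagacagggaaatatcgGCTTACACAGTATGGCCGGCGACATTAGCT
In the full windows that run is 48 bases long and lies wholly in the transcribed part, starting at base 3 of Amd1 and base 1 of Amd2. It reaches the end of the Amd1 window, so 48 is the least length of the run. The Amd1 window holds TATAA on both strands, 27 and 30 bases before the start, a pentamer found on either strand in 24.9% of 32851 RefSeq windows of 300 bases. It also holds 1 copy of GGAAGT, 1 form of the ETS site, a hexamer that 23.8% of the windows hold on either strand. Other forms of the ETS site were not searched. The Amd2 window also holds 2 matches to TATAA, 69 and 123 bases before its start, and no GGAAGT.

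The Amd1 row was listed at 6.49 and 0 scaled FPKM (fragments per kilobase of transcript, relative to the fragments sequenced, divided by a library factor) in homozygotes 26 and 29, against 0 and 0 in wild types 27 and 28. The Amd2 row was at 88.5 and 83.1 scaled FPKM in homozygotes 26 and 29, against 148 and 139 in wild types 27 and 28. Almost all of the signal at the locus thus stands in the Amd2 row, and the Amd1 row passed the filter on low values (a mean of 1 scaled FPKM) through mouse 26 alone. The sum of both rows was 94.97 and 83.1 scaled FPKM in the homozygotes, against 148 and 139 in the wild types, so the genotypes do not overlap. The summed level averaged 89.0 ± 8.43 in homozygotes and 144 ± 6.03 in wild types (SD, n = 2 each), a fall of the log2 level with a fold change of -0.69 (95% interval -1.01 to -0.37, limma adjusted p = 0.0350). The Amd2 row alone fell by 0.74 (SE 0.118, limma adjusted p = 0.0223), a call lost without homozygote 26 (0.185) and without homozygote 29 (0.222). The authors' deposited table gives Amd1 -0.65 on the log2 scale (q-value 0.0254), although its own FPKM values for that row are 0 in 3 of 4 libraries. For Amd2 the authors' deposited table gives -0.67 on the log2 scale (q-value 1). The authors' deposited p-values of the 2 rows are close, 0.00199 for Amd1 and 0.0024 for Amd2. Why their q-values differ was not tested.

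**Figure D1:**
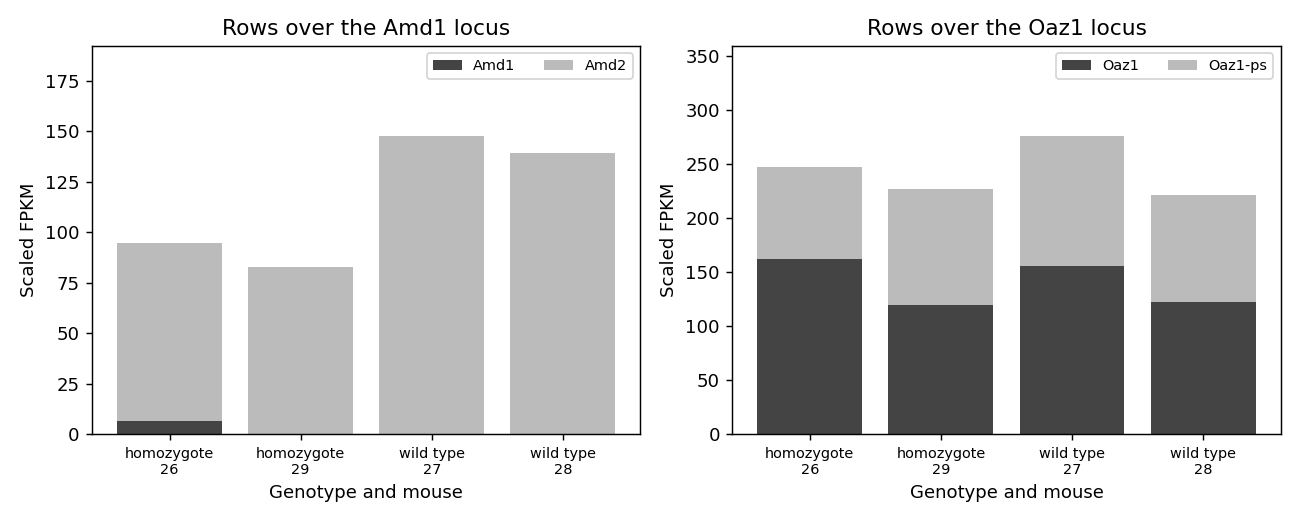
Stacked bars of scaled FPKM in each library for the rows of the table that lie over the Amd1 locus (left panel: Amd1 dark, Amd2 light) and over the Oaz1 locus (right panel: Oaz1 dark, Oaz1-ps light). The summed Amd bars are 94.97 and 83.1 in homozygotes and 148 and 139 in wild types, and the summed Oaz1 bars overlap between genotypes.

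Odc1 (ornithine decarboxylase, the entry step; Entrez 18263, chromosome 12, 17544873 to 17551502, plus strand, no other row over it) was at 67.1 and 53.3 scaled FPKM in homozygotes 26 and 29, against 99.4 and 82.2 in wild types 27 and 28. Both homozygotes lie below both wild types. The means were 60.2 ± 9.78 in homozygotes and 90.8 ± 12.2 in wild types (SD, n = 2 each), a log2 fold change of -0.59 (95% interval -0.999 to -0.177, unadjusted p = 0.0134, limma adjusted p = 0.109). An exact two-sided permutation test gave p = 0.33, the smallest that 2 against 2 allows. In the authors' deposited table it is -0.54 on the log2 scale (q-value 0.0619). The call appeared when wild type 28 was left out (-0.72, limma adjusted p = 0.0291), and the value was -0.42 without homozygote 29. The Odc1 start-site window (chr12:17544623-17544902, plus strand, GRCm38.p6, RefSeq) is shown as the promoter of the pathway's entry gene, with capitals on each match to GGGCGG or its reverse complement, a GC box.
Odc1: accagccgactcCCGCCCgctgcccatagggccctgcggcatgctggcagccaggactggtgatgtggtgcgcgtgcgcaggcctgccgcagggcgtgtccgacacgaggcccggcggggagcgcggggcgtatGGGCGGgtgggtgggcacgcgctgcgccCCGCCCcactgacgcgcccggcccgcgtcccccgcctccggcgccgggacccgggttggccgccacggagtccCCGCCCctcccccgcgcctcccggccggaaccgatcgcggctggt
It holds 4 GC boxes, a hexamer found in 35.7% of the 32851 windows on either strand, and no match to the other motifs searched. Only the 300 bases from 250 before to 50 after a start were searched, so matches elsewhere in a gene are not counted. The E-box CACGTG, letters that MYC proteins can bind, occurs on either strand in 7.2% of all windows. Of the 8 members with a window in RefSeq, Sms alone holds that E-box, in the window of 1 of its 2 starts. That Sms window also holds 3 copies of GGAAGT, and Smox, Paox, Oaz1, Oaz2 and Sat1 hold none.

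The aminopropyl transferases had lower averages and did not pass. Srm (spermidine synthase; Entrez 20810, chromosome 4, 148591513 to 148594619) was at 61.5 and 51.4 scaled FPKM in homozygotes 26 and 29, against 72.6 and 65.8 in wild types 27 and 28. Its genotypes do not overlap, and the log2 fold change was -0.29 (95% interval -0.63 to 0.04, limma adjusted p = 0.297). Sms (spermine synthase; Entrez 20603, chromosome X, 157443954 to 157492046) was at 10.5 and 10.2 scaled FPKM in homozygotes 26 and 29, against 16.0 and 11.0 in wild types 27 and 28. Wild type 27 stands apart, and the other 3 libraries lie within 1 scaled FPKM of each other. The log2 fold change was -0.33 (95% interval -0.78 to 0.11, limma adjusted p = 0.376). Without mouse 27 it was -0.08, and without mouse 28 it was -0.58 and passed (limma adjusted p = 0.0152). Mouse 27 also had the highest summed level of the 9 seminal vesicle markers with a value in every library, given below, and their part in the Sms value was not tested.

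The regulators of ornithine decarboxylase turnover did not pass. Oaz1 (antizyme 1; Entrez 18245, chromosome 10, 80826656 to 80829290) was at 162 and 120 scaled FPKM in homozygotes 26 and 29, against 156 and 123 in wild types 27 and 28. The log2 fold change was 0.01 (95% interval -0.49 to 0.51, limma adjusted p = 0.989), with each genotype holding 1 high and 1 low library. The row Oaz1-ps, a processed pseudogene that GENCODE places on chromosome 17, lies over the Oaz1 gene in the table, and 92.1% of the 50-base windows of its transcript occur in Oaz1 transcripts. Oaz1-ps was at 85.5 and 107 scaled FPKM in homozygotes, against 120 and 99.0 in wild types, and the sum of both rows was 248 and 227 in homozygotes, against 277 and 222 in wild types. For that sum the log2 fold change was -0.06 (95% interval -0.48 to 0.35, limma adjusted p = 0.888), and neither the row nor the sum passed.

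Oaz2 (antizyme 2; Entrez 18247, chromosome 9, 65676548 to 65690300) was at 32.4 and 32.1 scaled FPKM in homozygotes 26 and 29, against 34.4 and 35.5 in wild types 27 and 28. In scaled FPKM the genotypes do not overlap, but the difference is small, with a log2 fold change of -0.11 (95% interval -0.36 to 0.14, limma adjusted p = 0.615). Before scaling they overlap, at 32.8 and 33.6 FPKM in homozygotes 26 and 29, against 31.7 and 36.5 in wild types 27 and 28. Azin1 (antizyme inhibitor; Entrez 54375, chromosome 15, 38487430 to 38519266), a relative of ornithine decarboxylase without its enzyme activity, was at 51.5 and 44.96 scaled FPKM in homozygotes, against 55.5 and 47.0 in wild types. Its libraries overlap between genotypes, with a log2 fold change of -0.08 (95% interval -0.42 to 0.25, limma adjusted p = 0.807).

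The breakdown genes had no limma call. Sat1 (spermidine/spermine acetyltransferase, the first step of breakdown; Entrez 20229, chromosome X, 155213139 to 155216409) was at 144 and 146 scaled FPKM in homozygotes 26 and 29, against 153 and 134 in wild types 27 and 28. Both homozygotes lie between the wild types, and the log2 fold change was 0.02 (95% interval -0.31 to 0.34, limma adjusted p = 0.965). Smox (spermine oxidase, which turns spermine into spermidine; Entrez 228608, chromosome 2, 131491862 to 131525183) was at 8.53 and 9.10 scaled FPKM in homozygotes, against 8.43 and 7.21 in wild types. The genotypes do not overlap, the nearest libraries of different genotype being mice 26 and 27, and the log2 fold change was 0.16 (95% interval -0.14 to 0.45, limma adjusted p = 0.542). For Smox the value in the authors' deposited table is 0.31 on the log2 scale (q-value 0.0649). Paox (the peroxisomal oxidase of acetylated polyamines; Entrez 212503, chromosome 7, 140125685 to 140134334) was at 4.75 and 5.38 scaled FPKM in homozygotes, against 4.63 and 5.17 in wild types, with a log2 fold change of 0.04 (95% interval -0.26 to 0.34, limma adjusted p = 0.908).

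Taking the 10 rows singly and in scaled FPKM, the genotypes do not overlap in 5. Of these, 4 (Odc1, Srm, Sms and Oaz2) are lower and 1 (Smox) higher in homozygotes, and Oaz2 overlaps before scaling. Over all genes tested, 51.1% do not overlap (25.3% higher and 25.8% lower in homozygotes), so the members' count is at the background. The median log2 fold change was -0.04 over the 10 rows, 1 of which is the Amd1 row described above, and -0.0033 over all genes tested. The median size of the change regardless of sign was 0.13 over the rows and 0.15 over all genes tested.

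**Figure D2:**
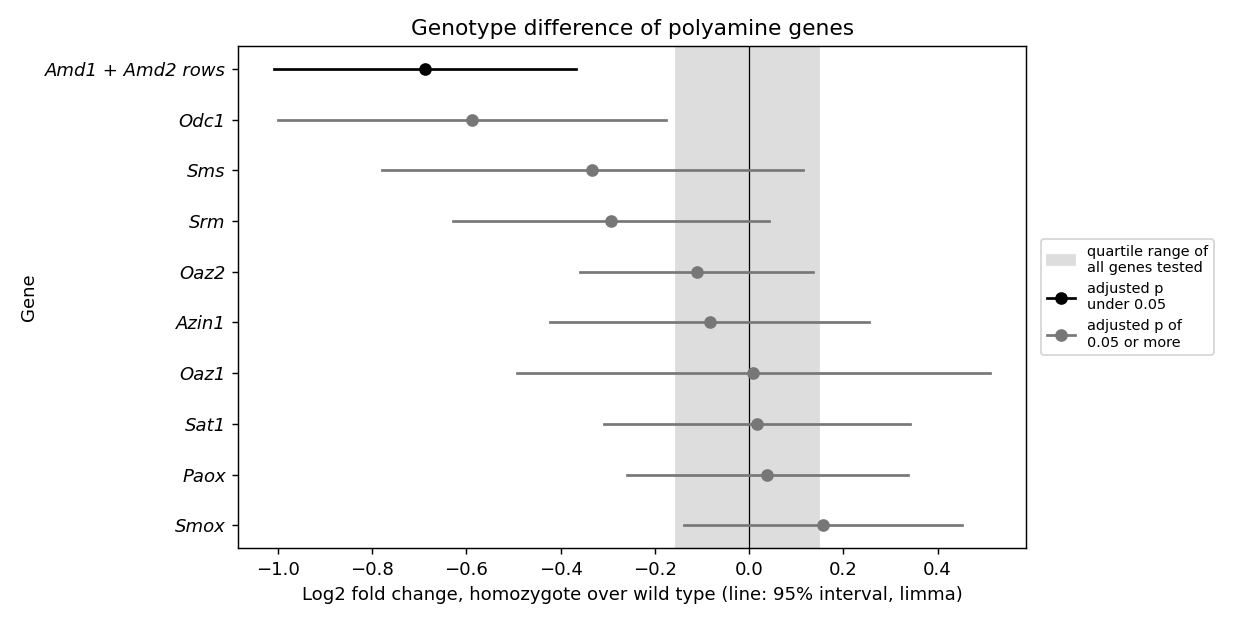
Log2 fold change of each gene, homozygote over wild type (points), with its 95% interval from limma (lines), for 9 of the genes and for the summed Amd1 and Amd2 rows; the grey band spans the lower and upper quartiles of all genes tested, -0.155 to 0.148. The summed Amd rows are drawn in black as the value that passed, Odc1 lies next to them at -0.59, and the intervals of the other 8 genes include 0.

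Levels ranged over more than an order of magnitude among the genes. FPKM is per length, so levels can be set side by side, but only roughly. The signal at the Amd1 and Oaz1 loci is split between rows, and summing adds FPKM of rows whose transcripts can differ in length. With the rows over each locus summed, Oaz1 (222 to 277 scaled FPKM) stands highest in wild types, and the summed Amd rows (139 to 148) and Sat1 (134 to 153) overlap below it. The Oaz1 row alone (123 to 156) overlaps both. Below these, Odc1, Srm, Azin1, Oaz2, Sms, Smox and Paox follow in that order without overlap between neighbours. In homozygotes the summed Oaz1 rows (227 to 248) again stand highest, Sat1 and the Oaz1 row alone stand above the summed Amd rows (83.1 to 94.97), and Odc1 (53.3 to 67.1), Srm (51.4 to 61.5) and Azin1 (44.96 to 51.5) each overlap the next. With 2 libraries a genotype these are descriptions.

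**Figure D3:**
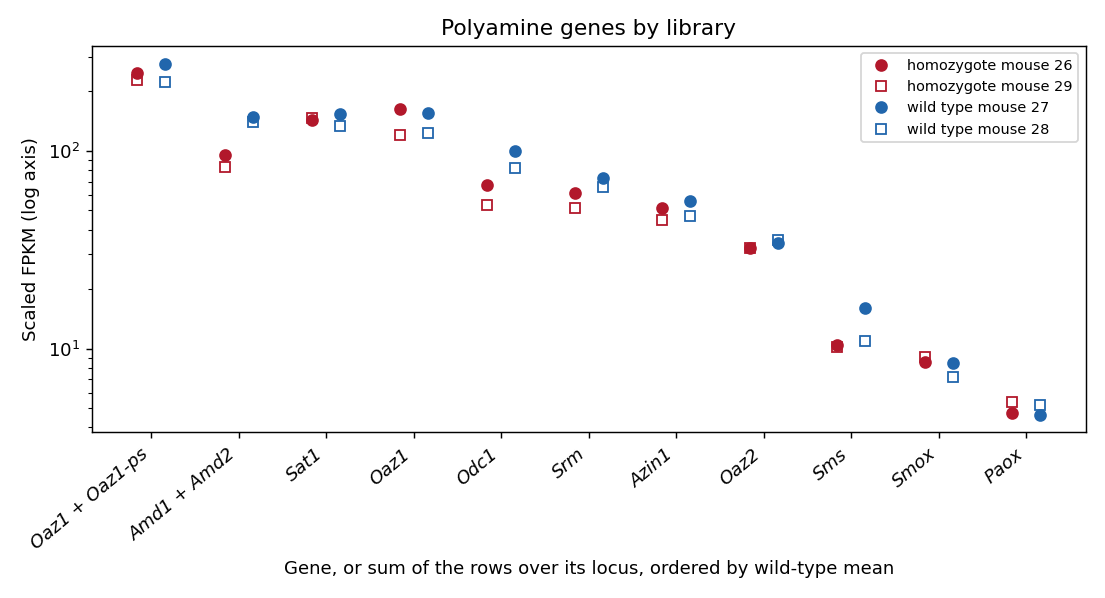
Scaled FPKM (log axis) of each gene, or of the summed rows over its locus, in the 4 libraries; homozygotes are red and left, wild types blue and right, with filled circles for mice 26 and 27 and open squares for mice 29 and 28. The summed Amd rows, Odc1, Srm, Sms and Oaz2 have both homozygotes below both wild types, and the remaining genes except Smox overlap.

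Ratios between genes of the same library do not depend on how libraries are scaled. The Odc1 level was 0.414 and 0.444 times that of the Oaz1 row in homozygotes 26 and 29, against 0.637 and 0.668 times in wild types 27 and 28. Against the summed Oaz1 and Oaz1-ps rows it was 0.271 and 0.235 times in homozygotes, against 0.359 and 0.370 times in wild types. The ratio of Odc1 to its antizyme is therefore lower in both homozygotes by either reading. Odc1 stood at 1.303 and 1.185 times Azin1 in homozygotes, against 1.79 and 1.75 times in wild types, and at 0.467 and 0.364 times Sat1 in homozygotes, against 0.650 and 0.613 times in wild types. The 4 Odc1 ratios share the Odc1 values and are not separate evidence. The ratios of Sms to Srm (0.170 and 0.198 in homozygotes, 0.220 and 0.167 in wild types) and of Smox to Paox (1.79 and 1.69 in homozygotes, 1.82 and 1.39 in wild types) overlap between genotypes. No test was made on ratios.

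**Figure D4:**
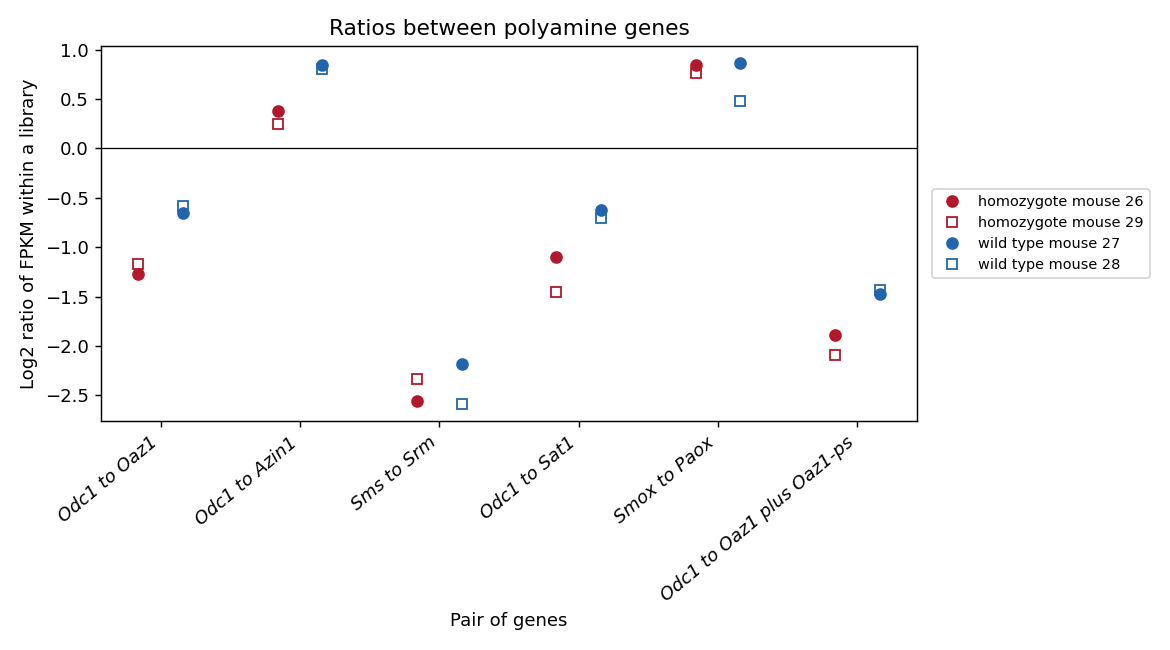
Log2 ratio of FPKM between pairs of genes within each library, homozygotes red and left, wild types blue and right. The 4 pairs with Odc1 as numerator have both homozygotes below both wild types, and Sms to Srm and Smox to Paox overlap.

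In the list of the methionine cycle and salvage, which supplies S-adenosylmethionine, 3 of 14 tested genes fell and 0 rose, with a median log2 fold change of -0.10. Of all 11762 genes tested, 3.00% were called lower and 4.65% higher in homozygotes, which is the background for this list and for those that follow. Mat2a, which encodes the enzyme that makes S-adenosylmethionine outside the liver, was at 52.9 and 61.0 scaled FPKM in homozygotes 26 and 29, against 183 and 144 in wild types 27 and 28. Its log2 fold change was -1.496 (SE 0.162, limma adjusted p = 0.00634), a fall, and passed under all 11 alternatives. Gnmt, a methyltransferase that consumes S-adenosylmethionine, was at 14.1 and 12.4 scaled FPKM in homozygotes, against 38.2 and 28.3 in wild types, and fell by 1.252 (SE 0.166, limma adjusted p = 0.0121). Ahcyl2, a relative of the hydrolase of the same cycle, fell by 0.73 (SE 0.130, limma adjusted p = 0.0301), at 22.5 ± 2.67 in homozygotes and 37.9 ± 3.18 in wild types (SD, n = 2 each). Without homozygote 29 the Gnmt call was lost (limma adjusted p = 0.0510). That of Ahcyl2 was lost without homozygote 26, without homozygote 29, with unscaled FPKM and with no filter, its limma adjusted p lying between 0.00442 and 0.250 over the alternatives.

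In the arginine and ornithine supply list, 1 of 9 tested genes rose and 2 fell, against 4.65% and 3.00% of all genes tested, with a median log2 fold change of 0.05. Arg1, the arginase that makes ornithine, was at 5.63 and 3.94 scaled FPKM in homozygotes, against 1.77 and 1.16 in wild types, and rose by 1.22 (SE 0.199, limma adjusted p = 0.0230). Ass1 and Asl, which encode successive enzymes of arginine synthesis, fell by 0.92 (SE 0.111, limma adjusted p = 0.00910) and by 0.57 (SE 0.112, limma adjusted p = 0.0420). Ass1 was at 17.3 and 16.5 scaled FPKM in homozygotes, against 34.7 and 30.8 in wild types, and Asl at 29.4 and 26.95 in homozygotes, against 44.2 and 40.2 in wild types. The call of Arg1 was lost without homozygote 26 and with no filter (highest limma adjusted p = 0.0796), and that of Ass1 without homozygote 26 or homozygote 29 (highest 0.0754). That of Asl was lost under 5 alternatives, namely leaving out either homozygote, unscaled FPKM, no filter and no trend (highest 0.336).

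In the transport list 2 of 8 tested genes were called higher and 0 lower, against 4.65% and 3.00% of all genes tested, with a median log2 fold change of -0.0053. Of the 2, Slc12a8 passed the filter on low values through the homozygotes alone, so its call is no support for the list. Slc12a8, a cotransporter family member reported to carry polyamines in human cells, was at 13.1 and 11.1 scaled FPKM in homozygotes, against 0.716 and 0.896 in wild types. The log2 fold change of 2.86 (SE 0.132) is given as a description. Slc3a2, the shared heavy chain of several amino acid transporters, was at 90.7 and 90.5 scaled FPKM in homozygotes, against 63.8 and 60.6 in wild types, and rose by 0.54 (SE 0.109, limma adjusted p = 0.0449). Its call was lost without homozygote 26, without homozygote 29 and with no filter (highest limma adjusted p = 0.400).

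**Figure D5:**
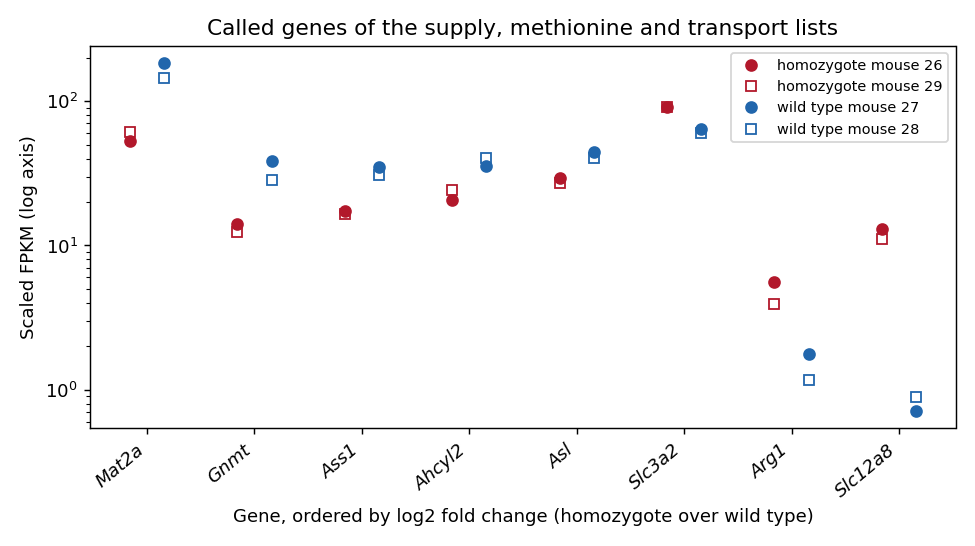
Scaled FPKM (log axis) in the 4 libraries of the 8 genes of the supply, methionine and transport lists called by limma, Slc12a8 among them, ordered by log2 fold change, homozygotes red and left, wild types blue and right. Mat2a, Gnmt, Ass1, Ahcyl2 and Asl have both homozygotes below both wild types, and Slc3a2, Arg1 and Slc12a8 have both above.

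In the hypusination list, whose process attaches a part of spermidine to the translation factor eIF5A, 0 of 3 tested genes passed by limma, 0 had an unadjusted p under 0.05 and the authors' deposited table calls 0 of them. Eif5a was at 457 and 400 scaled FPKM in homozygotes, against 409 and 356 in wild types (log2 fold change 0.16, SE 0.170, limma adjusted p = 0.672). In the list of the MYC network, only some of whose members are known regulators of Odc1 transcription, 0 of 9 passed by limma. Of the 9, 2 (Mxi1 and Mycl1) had an unadjusted p under 0.05. The authors' deposited table calls Mlx, a MAX-like partner (0.47 on the log2 scale, q-value 3.33e-04), and Mycn, which was under the filter on low values (-1.80, q-value 0.0487). The largest moderated statistic there was that of Mxi1, a MAX partner that opposes MYC, at 10.3 and 11.7 scaled FPKM in homozygotes, against 15.0 and 14.7 in wild types (log2 fold change -0.40, SE 0.109, limma adjusted p = 0.0994). Besides the Amd2 row, which lies over Amd1, a further list had Sat2, Aoc3 and Nqo1 tested. Sat2 is a paralog of Sat1, while Aoc3 and Nqo1 are not paralogs of any member. Sat2, Aoc3 and Nqo1 did not pass by limma, with unadjusted p under 0.05 for Aoc3 and Nqo1. The authors' deposited table calls Nqo1 (-1.06 on the log2 scale, q-value 0.00853).

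The setting of these values is as follows. Mouse Erg, which does not report on the human exons of the transgene, was at 0.881 and 1.12 scaled FPKM in homozygotes, against 1.06 and 0.926 in wild types, and was under the filter on low values. Tmprss2 was at 42.3 and 47.9 scaled FPKM in homozygotes, against 74.2 and 78.7 in wild types (limma adjusted p = 0.0209). Depth was roughly estimated at 4.5e+07 to 5.2e+07 fragments a library. Taking each gene's longest transcript as its length, about 770 (Smox) to 19000 (Oaz1) fragments lie behind each value of the 9 members other than Amd1. Shorter transcripts would mean fewer fragments. The 10 luminal epithelium markers of the labelled tissue were all above 0, summing to 2542 and 2582 scaled FPKM in homozygotes and 2273 and 2264 in wild types, with 1 of 10 (Epcam) called higher. The 9 seminal vesicle markers with a value in every library summed to 4353 and 8185 in homozygotes. In wild types 27 and 28 they summed to 42713 and 11082. Of the 9, 6 were called lower, all had a log2 fold change below 0, and none was at 0 in every library. Pate4, which was not called (limma adjusted p = 0.325), made up most of the sums of mice 26, 29 and 28, at 4318, 8148 and 9904. Of the 6 called, Svs1 was at 3.83 and 1.05 scaled FPKM in homozygotes, against 3421 and 236 in wild types. Svs6 was at 12.3 and 15.9 in homozygotes, against 12079 and 455 in wild types. The 6 smooth muscle markers summed to 1319 and 1553 in homozygotes and to 2700 and 1846 in wild types, 0 of 6 called and all 6 lower. The 7 macrophage and myeloid markers in the table summed to 106 and 94.4 in homozygotes and 84.5 and 49.8 in wild types, with 1 of 7 (Cd14) called higher. The 4 basal, 5 fibroblast, 4 endothelial and 2 tested proliferation markers had no limma call, and none of the 5 lymphocyte markers was tested. Of 5 tested prostate secretory genes, 1 (Mgp) was called higher and 1 (Spink3) lower. Msmb, not called, was at 28100 and 14924 in homozygotes, against 4240 and 4729 in wild types (limma adjusted p = 0.0626). Sbp, Sbpl and Tgm4 of that list lacked a value in some libraries and were not tested. The authors' deposited table calls Sbp (-10.31 on the log2 scale, q-value 0.0027) and Sbpl (-11.41, q-value 5.9e-04) lower. It gives Tgm4 3.46 without a call. Spink3, a secreted protease inhibitor, was at 97.1 and 8.70 scaled FPKM in homozygotes, against 38646 and 30639 in wild types (log2 fold change -10.12, limma adjusted p = 0.00475), the largest change in size of all genes tested. The part of these cell types and secretory genes in the Odc1, Amd and Mat2a differences was not tested.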

How the data were processed

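Per the labels' protocols, extraction used the RNeasy Plus kit and library preparation was Illumina's. The sources used here do not say whether strand was used. TopHat 1.3, Cufflinks 1.3 and mm10 are named in the submitters' processing notes, without roles. The deposited table holds 1 FPKM value per gene and library, a unit read from the values, and, per the file headers, the authors' fold score (log2, read from the values), p-value and q-value. The value 99999, in 7 genes, was read as a code and treated as missing.

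FPKM was divided by median-of-ratios factors (genes at 1 FPKM or above throughout). The 11762 complete genes averaging 1 scaled FPKM or more were fitted as log2(scaled FPKM + 1) with limma 3.58.1 in R 4.3.3 (trend, two-sided, Benjamini-Hochberg over all genes tested, 2 residual and 3.62 prior degrees of freedom). Fold changes are on that scale and understate those of low genes. The script recovered known changes in simulated data. Count tests were not run, because FPKM are not counts. Depth was estimated from the FPKM values between 0 and 1 of genes with 1 GENCODE transcript. The depth at which such a value equals 1 fragment was binned by 0.2 on the log2 scale, and the fullest bin was taken. That bin held 58 to 61 genes of 982 to 1042 a library, so the estimate is rough. Fragments per gene rest on the longest transcript of that gene. The limma p-values rest on the spread between 2 libraries a genotype, drawn toward a trend over all genes tested. That trend carries the 3.62 prior degrees of freedom, against 2 residual ones.

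All members, the context lists and the markers were chosen with earlier results of these data known. Named context genes are the called members of each list, or else the 1 with the largest moderated statistic. Alternatives changed the scaling (none, or quantile normalization), the pseudocount (0.1), the filter (none, or a mean of 5), the trend (none, or robust), the libraries (leaving out each) or the call (the authors'). Summing rows over 1 locus was added after the data were seen, as were the alternatives for context genes and the ratio to the summed Oaz1 rows. Promoter windows are from RefSeq (GRCm38.p6), which held 8 of the 10 members.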

Additional observations from a re-analysis of the deposited data

How the results depend on the processing

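The count of polyamine genes called was 0, and it was 1 with the rows over the same locus summed (the Amd sum) and 1 by the authors' deposited call (Amd1). With 1 library left out it ranged from 0 to 2: Odc1 and Sms passed without wild type 28, and the Amd1 row passed without homozygote 29, through its 1 value above 0. The count of all genes called ranged from 355 to 2028 with 1 library left out, against 900 with all 4 (355 without homozygote 26, 394 without homozygote 29, 2028 without wild type 27 and 1630 without wild type 28). A lone library was then assumed to vary like the other genotype.

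Odc1, Srm, Sms and Oaz2 stayed below 0 and Smox above 0 under all 12 alternatives, with Odc1 between -0.75 and -0.42. Values near 0 changed sign. Sat1 log2 fold change was -0.10 with quantile normalization, and between -0.076 and 0.11 with 1 library left out. The Oaz1 row was -0.10 with quantile normalization, -0.063 when summed with Oaz1-ps, and between -0.20 and 0.23 with 1 library left out. Azin1 lay between -0.20 and 0.034 and Paox between -0.034 and 0.12 with 1 library left out. The Amd1 row was -0.69 when summed with Amd2, since that sum replaces a row listed at 0 in 3 libraries. For the other changes the cause was not tested. No paired analysis was possible because the mouse numbers are not shared between genotypes. Exact permutation p-values cannot fall under 0.33 with 2 libraries a genotype.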

Other observations

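The further relatives and transporters of the pathway named here were chosen after their values were seen. Oaz3, an antizyme known from testis, was at 0.504 and 0.445 scaled FPKM in homozygotes, against 0.566 and 0.402 in wild types, and Satl1 was listed at 0 in all 4 libraries. Abp1, the older symbol of the diamine oxidase gene Aoc1, was at 0.307 and 0.351 scaled FPKM in homozygotes, against 0.696 and 0.674 in wild types, and was under the filter on low values. Sat2 was at 2.21 and 2.10 scaled FPKM in homozygotes, against 2.16 and 2.97 in wild types. Atp13a2, a lysosomal polyamine exporter, was at 29.4 and 32.8 scaled FPKM in homozygotes, against 17.0 and 22.6 in wild types (log2 fold change 0.64, SE 0.159, limma adjusted p = 0.0815). For Atp13a2 the value in the authors' deposited table is 0.69 on the log2 scale, with a q-value listed as 0.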
